A study of Mus musculus with 15 samples.

Results

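Cholesterol, fatty acid and lipoprotein metabolism was examined through 35 genes chosen by name: 16 enzymes of sterol synthesis, 5 SREBP regulators, 2 LXR receptors, 10 enzymes of fatty acid synthesis, desaturation and elongation, and lipoprotein lipase with the apolipoprotein B receptor. All 35 were among the 20453 genes of the deposited table and among the 14553 genes that passed the filter on low counts. RNA had been sequenced from bone marrow cells of C57BL/6 mice, sorted after depletion of mature cells by lineage antibodies (Ter119, Gr-1, B220, Cd11b and Cd5). The 3 leukaemia groups, LTearly (4 libraries), LTlate (3) and BMTGMP (3), were set against wtGMP (4), read from the sorting scheme as wild-type granulocyte-macrophage progenitors. One further library bears LTearly in its title and LTlate in the name of its column, so it entered no comparison. As background on the study, its question was whether leukaemias driven by the fusion MLL-AF9 differ with the cell in which they start.

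The series' title speaks of acute myeloid leukaemia from stem cells that express MLL-AF9. The labels do not spell out LTearly, LTlate or BMTGMP, and they give no age, no time of onset and no number of animals per library. They describe the model with one text for all samples: the human MLL-AF9 cDNA was inserted at a targeted locus in A2Lox-cre cells, where doxycycline switches on the recombinase, selected clones gave chimeric mice that were backcrossed to C57BL/6, and double heterozygous females were used. Which sort gate each leukaemia library came from is not stated. The text is the same for wtGMP, so the labels separate the groups by sample title alone. Levels are CPM, the counts of a gene scaled to the library's effective size. This size is the library's total on the genes tested, multiplied by its TMM scaling factor. CPM are not corrected for transcript length, so they are compared between libraries and not between genes. A gene is called where the edgeR quasi-likelihood test, adjusted over all genes tested, gave an adjusted p under 0.05, and "rose" and "fell" are used only of called genes. A change is the log2 of the fold, given with its standard error (SE), and the 3 comparisons against wtGMP share its 4 libraries.

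Cells make cholesterol from acetyl-CoA by way of mevalonate and squalene. When membranes run low in sterol, the escort protein SCAP carries the SREBP transcription factors out of the endoplasmic reticulum, and their cleaved forms switch on sterol and fatty acid genes. INSIG proteins hold SCAP back when sterol is plentiful. The LXR receptors bind oxysterols and switch on cholesterol export. Lipoprotein lipase releases fatty acids from the triglycerides of circulating lipoproteins, and it is known in macrophages as well as in fat and muscle.

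The start of Hmgcs1, the synthase before mevalonate, carries the classical sterol regulatory element and is shown with the starts of 3 genes whose levels changed here. These 3 were chosen after their values were seen, and because a CCAAT box lay in the bases shown. Each line gives 250 bases before to 50 after an annotated start, 5′ to 3′ on the gene's strand, from RefSeq on GRCm38.p6. Capitals mark the sterol element TCACNCCAC in Hmgcs1 (chr13:119690101-119690400, plus strand) and the CCAAT box, read on either strand, in Sc5d (chr9:42264251-42264550, minus strand), Cyp51 (chr5:4104648-4104947, minus strand) and Fasn (chr11:120824498-120824797, minus strand, where 2 of 3 matches share letters).
Hmgcs1: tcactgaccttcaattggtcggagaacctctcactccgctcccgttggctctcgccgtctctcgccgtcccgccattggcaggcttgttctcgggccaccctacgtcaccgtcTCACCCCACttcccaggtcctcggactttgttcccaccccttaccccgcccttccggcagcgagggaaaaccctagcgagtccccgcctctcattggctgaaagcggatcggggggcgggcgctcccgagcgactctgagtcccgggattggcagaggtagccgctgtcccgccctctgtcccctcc
Sc5d: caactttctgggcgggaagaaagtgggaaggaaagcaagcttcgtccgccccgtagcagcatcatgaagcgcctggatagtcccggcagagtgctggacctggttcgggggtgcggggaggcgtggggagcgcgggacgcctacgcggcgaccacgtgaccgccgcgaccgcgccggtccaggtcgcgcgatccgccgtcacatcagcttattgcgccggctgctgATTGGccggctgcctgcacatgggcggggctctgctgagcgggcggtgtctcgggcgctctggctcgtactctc
Cyp51: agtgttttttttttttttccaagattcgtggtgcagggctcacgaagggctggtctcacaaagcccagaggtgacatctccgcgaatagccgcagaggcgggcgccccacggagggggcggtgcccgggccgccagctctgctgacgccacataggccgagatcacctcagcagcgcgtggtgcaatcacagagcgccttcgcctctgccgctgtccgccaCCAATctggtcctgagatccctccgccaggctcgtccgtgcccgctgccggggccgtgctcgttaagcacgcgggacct
Fasn: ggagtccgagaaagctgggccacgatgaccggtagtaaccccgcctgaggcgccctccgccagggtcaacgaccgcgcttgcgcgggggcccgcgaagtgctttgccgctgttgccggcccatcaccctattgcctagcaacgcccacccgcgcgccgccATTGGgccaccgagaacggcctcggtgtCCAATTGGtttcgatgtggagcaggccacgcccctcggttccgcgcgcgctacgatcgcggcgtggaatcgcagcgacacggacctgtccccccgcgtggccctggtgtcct
Starts were given for 28 of the 35 genes, in 38 windows. The sterol element, searched on both strands, was in 1 of these windows (2.63%), against 1.24% of all 32851 windows of the table, and its first base in Hmgcs1 lay 137 bases before the start. The CCAAT box stood in 57.89% of the lipid gene windows and in 37.41% of all windows, and the E-box CACGTG in 18.42% and 7.15%. No CCAAT box was found in the windows of Apobr, Elovl6 and Scap, which were also called. The 4 CCAAT matches in Hmgcs1 are not in capitals. These matches describe the letters of the windows and say nothing of binding in these cells.

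Of the 35 lipid genes, 7 were called in at least 1 of the 6 comparisons and 28 in none. In LTearly against wtGMP 6 were called (17.1%), where the share among all genes tested was 20.1%. The 3 that rose were Lpl, Apobr and Sc5d (11.2% of all genes rose), and the 3 that fell were Fasn, Elovl6 and Scap (8.94% of all genes fell). In LTlate against wtGMP 4 were called (11.4%, with 10.8% of all genes called): Lpl, Apobr and Sc5d rose (7.50% of all genes) and Fasn fell (3.26%). In BMTGMP against wtGMP 4 were called (11.4%, with 6.56% of all genes called): Apobr, Sc5d and Cyp51 rose (4.40% of all genes) and Elovl6 fell (2.16%). The shares called in LTearly and LTlate were thus near those of all genes. The median log2 change over the 35 genes was -0.03 in LTearly, 0.03 in LTlate and 0.30 in BMTGMP against wtGMP, beside medians over all genes tested of 0.22, 0.00 and 0.07.

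**Figure D1:**
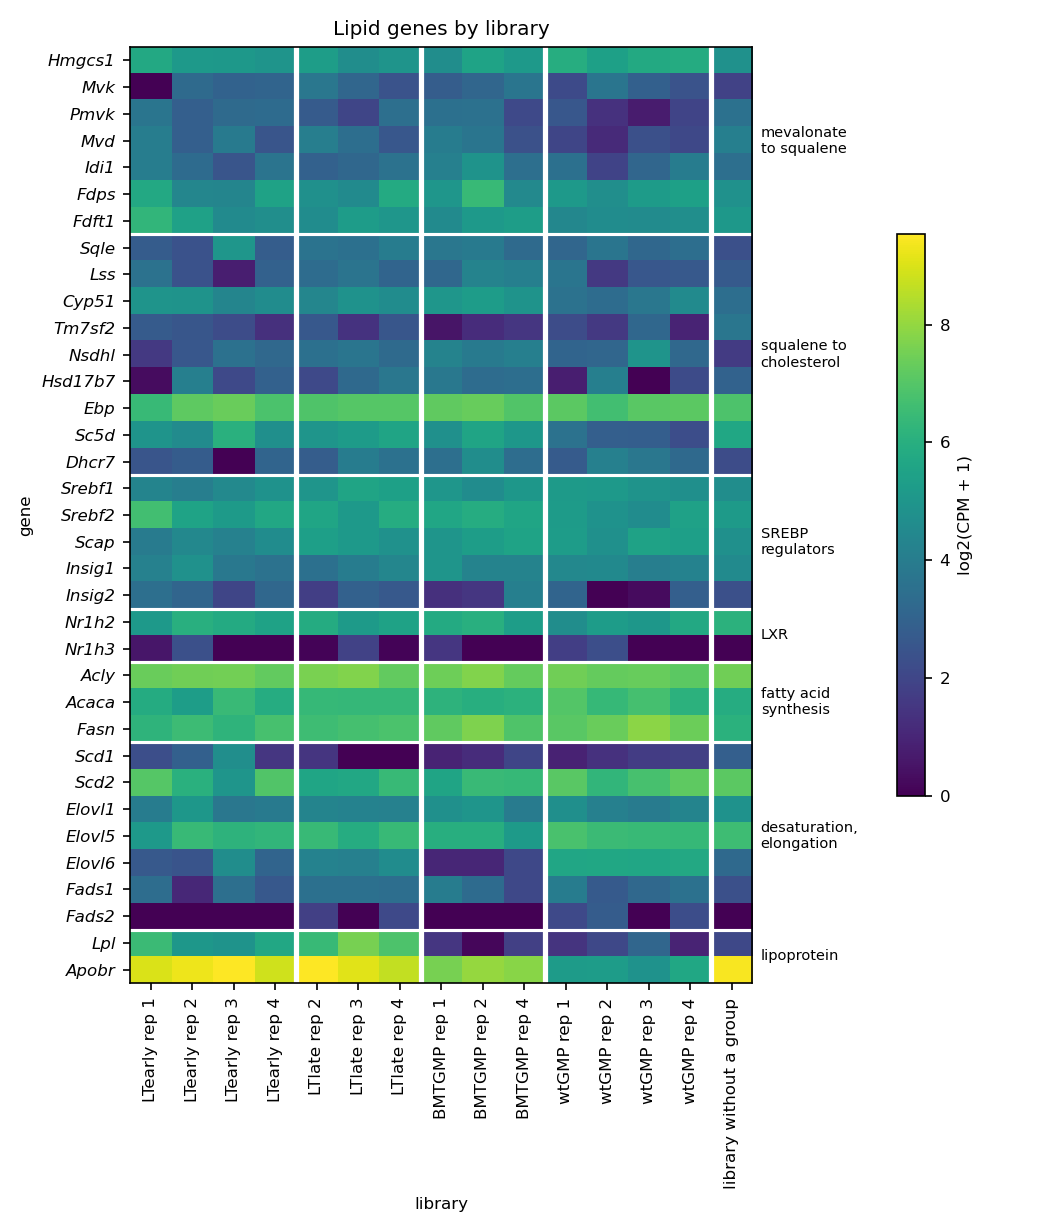
Level of each of the 35 genes (one per line, ordered by role) in each library (columns, with LTearly, LTlate, BMTGMP and wtGMP divided by white lines and the library without a group at the right edge), as log2(CPM + 1) from 0 in dark purple upwards to yellow. Lpl is bright in LTearly and LTlate and dark in BMTGMP and wtGMP, while Apobr is brighter in all leukaemia groups than in wtGMP and Elovl6 is darker.

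Lipoprotein lipase and the receptor for apolipoprotein B showed the largest rises. Lpl, the secreted lipase, had 89.8, 31.98, 29.0 and 52.0 CPM in LTearly and 85.4, 192 and 116 CPM in LTlate, but 1.86, 0.13 and 2.51 CPM in BMTGMP, against 1.72, 3.15, 7.85 and 0.95 CPM in wtGMP. All 7 libraries of LTearly and LTlate lay above every BMTGMP and every wtGMP library, and BMTGMP overlapped wtGMP. The separation does not extend to the library without a group, LT under both of its labels, which had 3.18 CPM. Lpl rose 14.7-fold in LTearly (3.87 ± 0.69, edgeR adjusted p = 0.00119) and 37.7-fold in LTlate (5.24 ± 0.73, adjusted p = 0.000347) relative to wtGMP. In BMTGMP it was not called against wtGMP (-1.25 ± 0.82, adjusted p = 0.449), on sums of 33 counts in BMTGMP and 58 in wtGMP. Against BMTGMP, Lpl rose in LTearly (5.12 ± 0.82, edgeR adjusted p = 0.00257) and in LTlate (6.49 ± 0.87, adjusted p = 0.00132). The Lpl value was not whole in 10 of 15 libraries, as where reads have several hits. Of its helpers, the maturation factor gene Lmf1 read 3.67 to 21.7 CPM in LTearly, 11.5 to 19.8 in LTlate, 11.8 to 19.3 in BMTGMP and 10.1 to 23.1 in wtGMP, and the endothelial anchor gene Gpihbp1 had no count in these libraries.

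Apobr, which encodes a receptor for apolipoprotein B of triglyceride-rich particles known from human macrophages, had 512, 632, 740 and 459 CPM in LTearly, 732, 549 and 406 CPM in LTlate and 189, 262 and 229 CPM in BMTGMP, against 36.3, 37.4, 28.0 and 50.03 CPM in wtGMP. The groups formed 3 steps without overlap, wtGMP lowest, BMTGMP between, and LTearly and LTlate together on top. Apobr rose 15.5-fold in LTearly (3.95 ± 0.22, edgeR adjusted p = 9.76e-13), 14.9-fold in LTlate (3.89 ± 0.23, adjusted p = 1.82e-12) and 5.99-fold in BMTGMP (2.58 ± 0.22, adjusted p = 6.96e-09) relative to wtGMP. It also rose in LTearly against BMTGMP (1.37 ± 0.22, adjusted p = 0.000311) and in LTlate against BMTGMP (1.31 ± 0.23, adjusted p = 0.00124). In GENCODE annotation on GRCm38, exons of Apobr share 442 bases with Cln3 and 103 bases with Il27, both on the opposite strand, and whether the counting used strand is not given in the sources used here. Cln3 read 21.6 to 40.4 CPM in LTearly, 7.23 to 26.9 in LTlate, 14.9 to 21.5 in BMTGMP and 2.02 to 11.4 in wtGMP, and Il27 was at most 5.33 CPM in these groups.

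Marker sums of mature myeloid cells and progenitors differed between the groups. The 11 late neutrophil markers, all detected in each group, summed to 13000 to 25900 CPM in LTearly, 5240 to 9390 in LTlate and 1430 to 7020 in BMTGMP, against 52.4 to 152 in wtGMP. The 12 progenitor markers, also all detected, summed to 2010 to 8290 CPM in LTearly, 2520 to 3600 in LTlate and 9920 to 13400 in BMTGMP, against 21000 to 24600 in wtGMP. Mpo alone read 561 to 4770, 247 to 529, 5730 to 9020 and 16000 to 19200 CPM in the same order, so it weighs heavily in these sums. Of the 12, 0 rose and 6 fell in LTearly (11.2% and 8.94% of all genes). In LTlate 2 rose and 4 fell (7.50% and 3.26%), and in BMTGMP 1 rose and 2 fell (4.40% and 2.16%). Of 11 monocyte and macrophage markers, 10 were in the table, with sums of 527 to 1190 CPM in LTearly, 638 to 768 in LTlate and 335 to 548 in BMTGMP, against 542 to 601 in wtGMP. Of the 9 tested, 3 rose in LTearly (11.2% of all genes rose), 3 in LTlate (7.50%) and 1 in BMTGMP (4.40%). In each group 0 fell, where 8.94%, 3.26% and 2.16% of all genes fell. Single markers of this list differed in pattern. C1qb was low, with 72 counts in LTearly (1.6 to 6.6 CPM), 136 in LTlate (2.09 to 6.36 CPM) and none in BMTGMP or wtGMP. Adgre1 read 95.6 to 114 CPM in LTearly, 68.7 to 87.6 in LTlate and 57.0 to 77.8 in BMTGMP, against 6.33 to 21.8 in wtGMP. Csf1r read 103 to 350 CPM in LTearly, 204 to 240 in LTlate and 39.0 to 161 in BMTGMP, against 168 to 195 in wtGMP. The 4 adipocyte markers summed to at most 7.34 CPM in LTearly, 2.02 in LTlate, 5.44 in BMTGMP and 3.15 in wtGMP, with Plin1 at 0 in every library and Adipoq at 0 in LTearly. The part of neutrophil, progenitor and macrophage content in the lipid gene results was not tested. In bulk RNA, fewer cells of a type and less RNA per cell cannot be told apart.

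**Figure D2:**
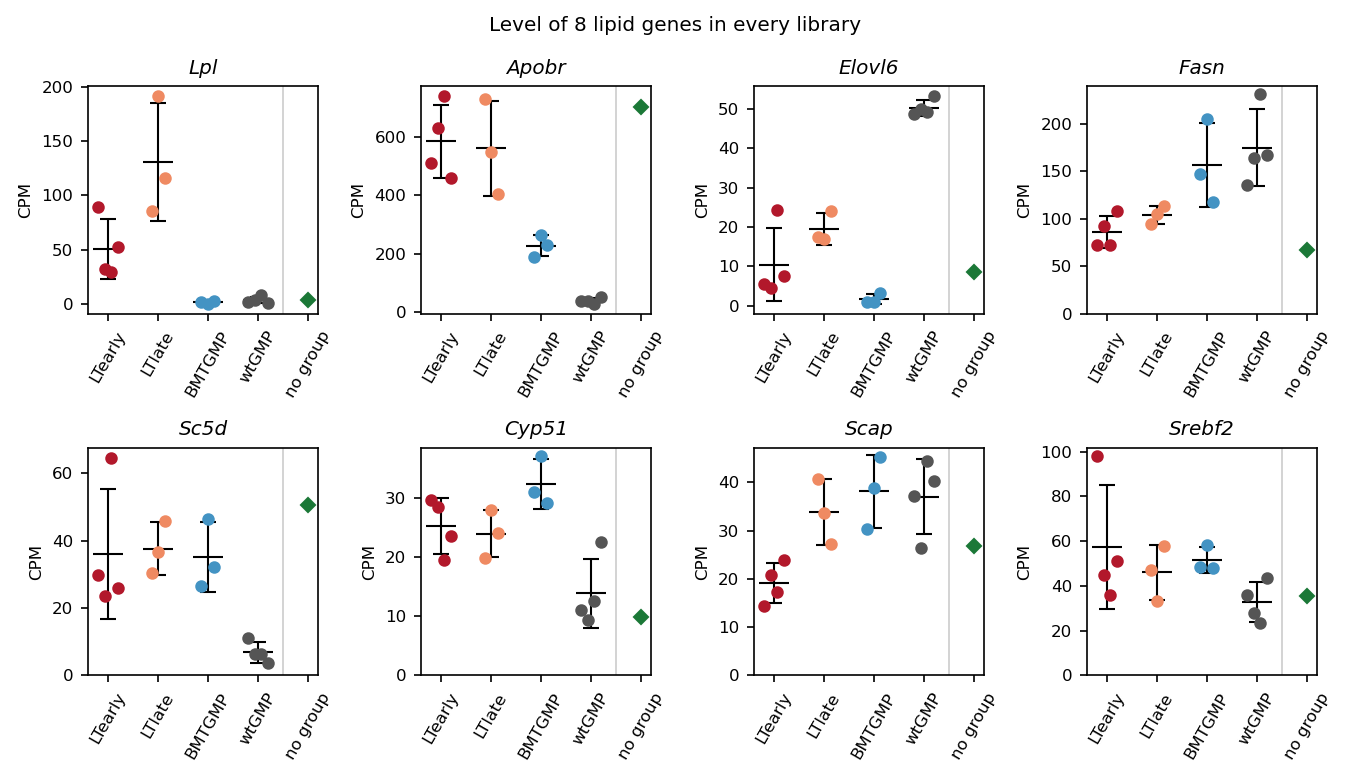
Level in CPM (linear axis) of 8 genes in every library, with LTearly, LTlate, BMTGMP and wtGMP from left to right and the library without a group as a diamond; points are libraries, bars the mean ± SD of the group. Apobr sits between 406 and 740 CPM in LTearly and LTlate and between 28.0 and 50.03 CPM in wtGMP, and Elovl6 between 48.6 and 53.2 CPM in wtGMP and below 25 CPM in each leukaemia library.

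Fatty acid synthesis begins with acetyl-CoA from ATP citrate lyase, which acetyl-CoA carboxylase and fatty acid synthase turn into palmitate. Fasn, the synthase gene, had 72.2, 92.2, 72.7 and 108 CPM in LTearly, 94.9, 105 and 113 CPM in LTlate and 147, 205 and 118 CPM in BMTGMP, against 136, 164, 232 and 167 CPM in wtGMP. LTearly and LTlate lay below every BMTGMP and wtGMP library, and BMTGMP overlapped wtGMP. Fasn fell 2.02-fold in LTearly (-1.01 ± 0.21, edgeR adjusted p = 0.000789) and 1.68-fold in LTlate (-0.74 ± 0.23, adjusted p = 0.0317) relative to wtGMP, and 1.81-fold in LTearly relative to BMTGMP (-0.86 ± 0.22, adjusted p = 0.0191). In BMTGMP it was not called against wtGMP (-0.15 ± 0.22, adjusted p = 0.805). The LTlate call was lost without LTlate replicate 2, 3 or 4 (adjusted p = 0.182, 0.115 and 0.0735) or wtGMP replicate 3 or 4 (adjusted p = 0.149 and 0.0556) and with transcripts summed (adjusted p = 0.0622), and the call against BMTGMP was lost without BMTGMP replicate 2 (adjusted p = 0.16) and with LTearly and BMTGMP alone in the fit (adjusted p = 0.088).

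The other enzymes of this step were not called. Acaca, the carboxylase gene, averaged 60.6 ± 20.5 CPM in LTearly (n = 4), 80.7 ± 1.01 in LTlate (n = 3) and 67.0 ± 4.57 in BMTGMP (n = 3), against 95.0 ± 23.9 in wtGMP (SD, n = 4). Its change in LTearly was -0.66 ± 0.24 (edgeR adjusted p = 0.0529) and was called without LTearly replicate 3 (adjusted p = 0.00767) or wtGMP replicate 4 (adjusted p = 0.0328). Acaca was also called by edgeR without the low-count filter (adjusted p = 0.035) and with a filter of 1 CPM in 3 libraries (adjusted p = 0.04). Placing the library without a group in LTearly (edgeR adjusted p = 0.0219) or LTlate (adjusted p = 0.0445) gave the call too. Acly, the citrate lyase gene, averaged 167 ± 14.3 CPM in LTearly, 186 ± 31.4 in LTlate and 179 ± 28.7 in BMTGMP, against 158 ± 15.3 in wtGMP. Its changes against wtGMP ran from 0.08 to 0.24 with SEs of at most 0.18.

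Elovl6, the elongase that lengthens palmitate, showed the largest fall. It had 5.38, 4.53, 24.2 and 7.51 CPM in LTearly, 17.5, 16.9 and 24.2 CPM in LTlate and 1.02, 1.04 and 3.14 CPM in BMTGMP, against 48.6, 49.99, 49.1 and 53.2 CPM in wtGMP. The wtGMP libraries were close together and above all leukaemia libraries, and BMTGMP lay below both LT groups. The Elovl6 value was not whole in 9 of 15 libraries, so that a split of reads with other transcripts is uncertain. Elovl6 fell 4.92-fold in LTearly (-2.30 ± 0.47, edgeR adjusted p = 0.00066) and 30.4-fold in BMTGMP (-4.92 ± 0.61, adjusted p = 2.97e-06) relative to wtGMP. In LTlate its change was -1.36 ± 0.49 (adjusted p = 0.0768), not called although the groups did not overlap, but called with LTlate and wtGMP alone in the fit (adjusted p = 0.00111). Elovl6 was also called in LTlate by edgeR with the library without a group placed there (adjusted p = 0.0192). Against BMTGMP it rose in LTearly (2.63 ± 0.57, adjusted p = 0.00476) and in LTlate (3.56 ± 0.59, adjusted p = 0.000693). The LTearly call against BMTGMP was lost with those 2 groups alone in the fit (adjusted p = 0.203). Markers of eosinophils, basophils and mast cells, 9 of 9 in the table, summed to 13.1 to 62.4 CPM in LTearly, 108 to 341 in LTlate and 5.65 to 9.08 in BMTGMP, against 168 to 288 in wtGMP. Prg2 made up much of the sum in LTlate (76.3 to 270 CPM) and in wtGMP (74.6 to 180 CPM). Of the 7 markers tested, 2 fell in LTearly, 1 in LTlate and 4 in BMTGMP, and 0 rose (8.94%, 3.26% and 2.16% of all genes fell). Their median changes were -2.87, -1.34 and -7.19. Of the 9 markers 3 had no count in LTlate and 5 none in BMTGMP, among them Cpa3 and Epx in BMTGMP. The part of these markers in the Elovl6 result was not tested.

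Of the 6 remaining desaturases and elongases 0 were called by edgeR against wtGMP. Elovl5, which lengthens polyunsaturated fatty acids, had 61.5, 62.6 and 36.0 CPM in BMTGMP, all below the 109, 89.0, 85.7 and 83.0 CPM of wtGMP, yet its change was not called (-0.78 ± 0.28, edgeR adjusted p = 0.106) except with BMTGMP and wtGMP alone in the fit (adjusted p = 0.0406). Elovl1, which makes very long saturated chains, ran from 12.8 to 32.2 CPM over the 14 libraries. Scd2, a stearoyl-CoA desaturase gene, averaged 86.5 ± 47.2 CPM in LTearly, 61.3 ± 19.7 in LTlate and 71.8 ± 21.9 in BMTGMP, against 116 ± 30 in wtGMP, and was called in LTlate with LTlate and wtGMP alone in the fit (-0.90, edgeR adjusted p = 0.00888). Its relative Scd1 was low: 3.91, 6.66, 25.0 and 1.88 CPM in LTearly, 1.79, 0 and 0 CPM in LTlate and 0.93, 1.30 and 2.93 CPM in BMTGMP, against 0.86, 1.57, 2.24 and 2.53 CPM in wtGMP. LTearly replicate 3 held most of the Scd1 counts of its group (68 of 125). Scd1 and Scd2 are near-identical copies in part, their values were not whole in 9 of 15 libraries, and the split between them is uncertain. Fads1 and Fads2 encode the desaturases of polyunsaturated fatty acids. Fads1 averaged 6.51 ± 4.27 CPM in LTearly, 10.2 ± 0.382 in LTlate and 9.02 ± 5.92 in BMTGMP, against 9.95 ± 4.11 in wtGMP. Fads2 had 0 counts in LTearly and in BMTGMP, which allows up to 0.157 and 0.129 CPM over the group (3 counts), 80 counts in LTlate and 50 in wtGMP, where 1 library of each was also at 0.

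**Figure D3:**
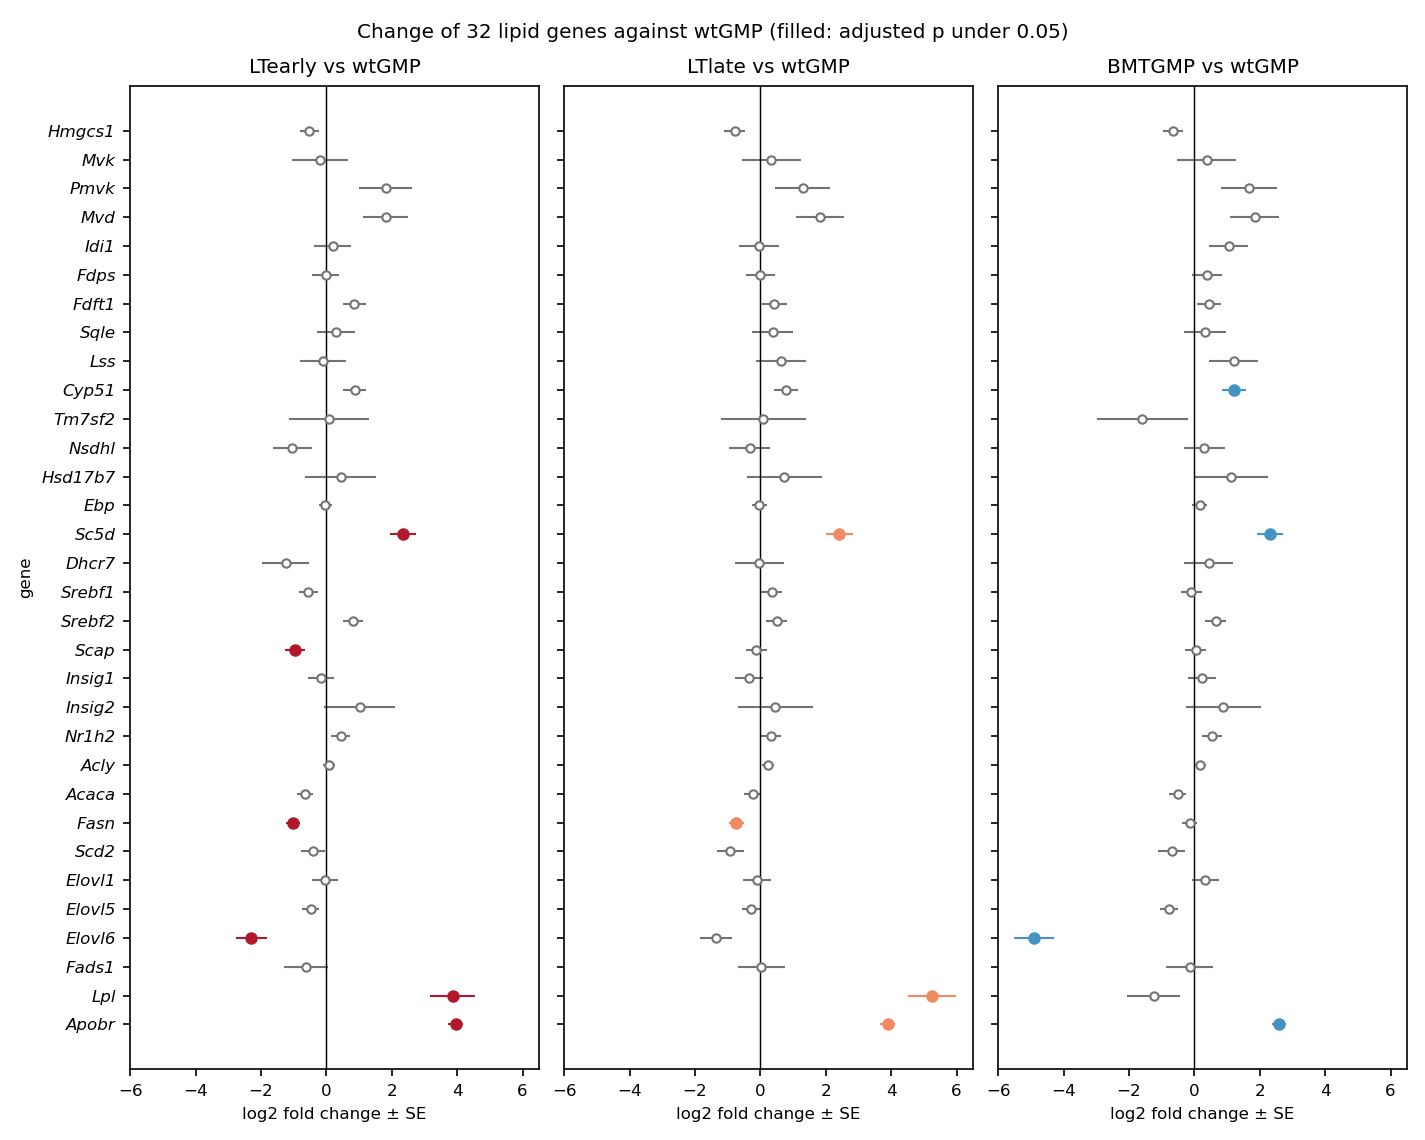
Log2 fold change ± SE against wtGMP of 32 of the 35 genes (one per line) in LTearly, LTlate and BMTGMP, from left to right; filled points have an adjusted p under 0.05, and Scd1, Fads2 and Nr1h3 are left out because of their low counts. Most points lie near 0, with Lpl and Apobr far to the right, Sc5d to the right in the 3 panels, and Elovl6 to the left, down to -4.92 in BMTGMP.

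The 7 genes from hydroxymethylglutaryl-CoA to squalene gave 0 calls in each of the 3 comparisons against wtGMP. By unadjusted p under 0.05, edgeR placed 13 of the 35 lipid genes in LTearly, 9 in LTlate and 8 in BMTGMP. No share over all genes was taken at that threshold. DESeq2 called 11, 4 and 4 of the 35, beside 3615, 2107 and 1420 of the 14553 genes tested. Hmgcs1 had 52.4, 34.1, 33.0 and 29.8 CPM in LTearly, 39.0, 24.7 and 29.7 CPM in LTlate and 24.2, 45.0 and 33.5 CPM in BMTGMP, against 61.0, 41.7, 55.0 and 57.3 CPM in wtGMP. Its changes ran from -0.79 ± 0.31 in LTlate to -0.53 ± 0.29 in LTearly, and the lowest edgeR adjusted p was 0.11. Its LTlate change was called with LTlate and wtGMP alone in the fit (adjusted p = 0.0389) and with the library without a group placed in LTlate (adjusted p = 0.047). Other genes of the same stretch had values on the other side. Pmvk, which phosphorylates phosphomevalonate, averaged 9.08 ± 2.29 CPM in LTearly, 6.29 ± 3.65 in LTlate and 8.18 ± 4.18 in BMTGMP, against 2.53 ± 1.89 in wtGMP. Mvd, the decarboxylase that follows, averaged 10.2 ± 5.44 CPM in LTearly, 10.3 ± 5.38 in LTlate and 10.3 ± 5.52 in BMTGMP, against 2.85 ± 1.20 in wtGMP. For Mvd all leukaemia libraries lay above all wtGMP libraries, but wtGMP held only 52 counts of it in sum, and the adjusted p were 0.0701 in LTearly, 0.121 in LTlate and 0.155 in BMTGMP by edgeR. In LTearly Mvd was called by edgeR without LTearly replicate 4 (adjusted p = 0.0412), and DESeq2 called Mvd (adjusted p = 0.0233) and Pmvk (adjusted p = 0.0344). With the library without a group placed in LTearly or LTlate, edgeR called Mvd in that group (adjusted p = 0.0359 and 0.0489).

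Mvk, the mevalonate kinase gene, ran from 0 to 12.6 CPM over the 14 libraries. Idi1, the isomerase of isopentenyl diphosphate, averaged 10.2 ± 4.47 CPM in LTearly, 8.67 ± 2.22 in LTlate and 18.6 ± 9.56 in BMTGMP, against 8.95 ± 5.06 in wtGMP. Fdps, which makes farnesyl diphosphate, averaged 34.2 ± 17.0, 34.9 ± 17.8 and 45.7 ± 34.4 CPM in LTearly, LTlate and BMTGMP, against 34.9 ± 7.09 in wtGMP. The split of reads between these genes and near-identical copies is uncertain, since 12 of 15 values of Idi1 and 14 of Fdps were not whole. Fdft1, squalene synthase, had 76.6, 43.4, 22.7 and 25.0 CPM in LTearly, 24.1, 37.7 and 31.5 CPM in LTlate and 22.4, 34.0 and 38.1 CPM in BMTGMP, against 20.1, 24.0, 23.3 and 25.0 CPM in wtGMP. Its change in LTearly (0.86 ± 0.35, edgeR adjusted p = 0.0824) was called without LTearly replicate 3 (adjusted p = 0.0379) or 4 (adjusted p = 0.0374), and its exons share 774 bases with Ctsb on the opposite strand, which read 323 to 549 CPM in LTearly, 246 to 351 in LTlate, 134 to 232 in BMTGMP and 149 to 199 in wtGMP.

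Past squalene, Sc5d rose in each leukaemia group, and Cyp51 in BMTGMP. Sc5d, lathosterol oxidase, which sets a double bond late in the pathway, had 29.8, 23.4, 64.6 and 25.8 CPM in LTearly, 30.3, 36.6 and 45.8 CPM in LTlate and 26.4, 46.5 and 32.2 CPM in BMTGMP, against 11.2, 6.30, 6.28 and 3.8 CPM in wtGMP. All 10 leukaemia libraries lay above all 4 wtGMP libraries, and the leukaemia groups overlapped one another. Sc5d rose 5.06-fold in LTearly (2.34 ± 0.40, edgeR adjusted p = 7.95e-05), 5.32-fold in LTlate (2.41 ± 0.41, adjusted p = 0.000162) and 4.97-fold in BMTGMP (2.31 ± 0.41, adjusted p = 0.000372) relative to wtGMP. These calls were kept in every alternative fit run.

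Cyp51, lanosterol demethylase, had 29.6, 28.5, 19.4 and 23.6 CPM in LTearly, 19.9, 28.0 and 24.1 CPM in LTlate and 31.0, 37.1 and 29.1 CPM in BMTGMP, against 11.05, 9.45, 12.6 and 22.5 CPM in wtGMP. The group means were all above wtGMP, with wtGMP replicate 4 inside the range of LTearly and LTlate. Cyp51 rose 2.34-fold in BMTGMP (1.22 ± 0.37, edgeR adjusted p = 0.0453), and had changes of 0.87 ± 0.35 in LTearly (adjusted p = 0.0836, and 0.0257 without wtGMP replicate 4) and 0.79 ± 0.37 in LTlate (adjusted p = 0.193). DESeq2 called Cyp51 in LTearly (adjusted p = 0.0297). The BMTGMP call was kept in 3 of 16 alternatives, with adjusted p from 0.0109 to 0.18. It was lost when any of the BMTGMP libraries or wtGMP replicate 1, 2 or 3 was left out. Exons of Cyp51 share 166 bases with Akap9 on the opposite strand.

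The remaining 7 genes of this stretch were not called in any comparison. Ebp, which shifts a double bond of the sterol ring, was steady at 125 ± 34.4 CPM in LTearly, 125 ± 6.34 in LTlate and 143 ± 19.5 in BMTGMP, against 128 ± 19.6 in wtGMP, with changes of at most 0.16 and an SE of 0.22 in BMTGMP. Sqle, squalene epoxidase and an early control point, averaged 11.7 ± 12.7 CPM in LTearly, 12.2 ± 2.43 in LTlate and 11.8 ± 2.69 in BMTGMP, against 9.5 ± 2.0 in wtGMP. Lss, the cyclase that forms lanosterol, averaged 5.67 ± 4.32 CPM in LTearly, 9.49 ± 2.15 in LTlate and 14.2 ± 5.27 in BMTGMP, against 6.05 ± 4.19 in wtGMP. Nsdhl and Dhcr7, a decarboxylating dehydrogenase and the last reductase of the pathway, had their lowest group means in LTearly. Nsdhl averaged 6.47 ± 3.78 CPM in LTearly, 10.5 ± 1.71 in LTlate and 16.3 ± 2.21 in BMTGMP, against 13.2 ± 10.8 in wtGMP. Dhcr7 averaged 4.50 ± 3.22 CPM in LTearly, 10.6 ± 4.44 in LTlate and 14.6 ± 8.32 in BMTGMP, against 11 ± 4.95 in wtGMP. Both genes lay lower in every LTearly library than in every BMTGMP library, with edgeR adjusted p of 0.227 for Nsdhl and 0.211 for Dhcr7. Hsd17b7, a ketosteroid reductase, ran from 0 to 16.3 CPM, and Tm7sf2, a sterol reductase whose exons share 532 bases with Vps51 on the same strand, from 0.465 to 8.08 CPM over the 14 libraries.

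Among the SREBP regulators, Scap was lower in LTearly. It had 14.4, 20.8, 17.2 and 23.9 CPM in LTearly, 40.7, 33.6 and 27.1 CPM in LTlate and 30.2, 38.9 and 45.2 CPM in BMTGMP, against 37.2, 26.4, 44.4 and 40.2 CPM in wtGMP. Every LTearly library lay below every library of the other 3 groups. Scap fell 1.93-fold in LTearly relative to wtGMP (-0.95 ± 0.30, edgeR adjusted p = 0.0249), a call lost without LTearly replicate 1 (adjusted p = 0.0651), wtGMP replicate 3 (adjusted p = 0.0782) or wtGMP replicate 4 (adjusted p = 0.0586). Its differences between LTearly and LTlate (-0.82 ± 0.32, adjusted p = 0.348) and between LTearly and BMTGMP (-0.99 ± 0.32, adjusted p = 0.0635, and 0.0363 without LTearly replicate 4) were not called. The difference from BMTGMP was also called by DESeq2 (adjusted p = 0.0318) and with transcripts summed (edgeR adjusted p = 0.0335). Exons of Scap share 985 bases with 5830462I19Rik on the opposite strand.

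Srebf2, the factor of sterol genes, had 98.1, 44.8, 36.0 and 51.2 CPM in LTearly, 47.1, 33.5 and 58.0 CPM in LTlate and 48.4, 58.3 and 47.9 CPM in BMTGMP, against 36.2, 28.0, 23.6 and 43.4 CPM in wtGMP. It was not called, with changes of 0.81 ± 0.30 in LTearly (edgeR adjusted p = 0.0571, and 0.0273 without LTearly replicate 3 or 0.0421 without wtGMP replicate 4), 0.50 ± 0.32 in LTlate (adjusted p = 0.365) and 0.65 ± 0.32 in BMTGMP (adjusted p = 0.26). Median-ratio factors (edgeR adjusted p = 0.039) and DESeq2 (adjusted p = 0.0409) also gave a call of Srebf2 in LTearly. Srebf1, which serves fatty acid genes, averaged 21.1 ± 5.39 CPM in LTearly, 39.3 ± 8.17 in LTlate and 28.9 ± 4.38 in BMTGMP, against 31.1 ± 4.76 in wtGMP, and every LTearly library lay below every LTlate library without a call (-0.89 ± 0.32, adjusted p = 0.297). Insig1 averaged 17.2 ± 7.12 CPM in LTearly, 15 ± 4.53 in LTlate and 22.3 ± 6.77 in BMTGMP, against 19.2 ± 2.83 in wtGMP. Insig2 ran from 0 to 16.5 CPM, with few counts in several libraries.

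Of the LXR receptors, Nr1h2 (LXR beta) averaged 49.8 ± 13.2 CPM in LTearly, 45.8 ± 11.1 in LTlate and 52.7 ± 13.3 in BMTGMP, against 36.7 ± 11.8 in wtGMP, and was not called (changes of 0.33 to 0.53 with SEs of 0.29 to 0.31). Nr1h3 (LXR alpha) was at most 4.0 CPM, with 17 counts in LTearly, 33 in LTlate and 20 in BMTGMP, against 27 in wtGMP. Of 12 genes that LXR is known to switch on, or that move cholesterol out of cells, 7 rose in LTearly (11.2% of all genes rose), 5 in LTlate (7.50% of all genes) and 1 in BMTGMP (4.40% of all genes), and 0 fell. The count of 1 in BMTGMP, 8.33% of the list called, was near the 6.56% of all genes. Their median change was 1.19 in LTearly, 1.04 in LTlate and 0.72 in BMTGMP, beside 0.22, 0.00 and 0.07 over all genes. Abcg1, a cholesterol exporter, averaged 36.1 ± 18.3 CPM in LTearly and 30.4 ± 9.84 in LTlate, against 4.50 ± 3.44 in wtGMP, and rose in both (2.98 ± 0.57, edgeR adjusted p = 0.000478, and 2.73 ± 0.59, adjusted p = 0.00257). Npc1, which lets cholesterol leave lysosomes, rose in LTearly (1.11 ± 0.30, adjusted p = 0.00795) and in BMTGMP (1.03 ± 0.32, adjusted p = 0.0464). Smpdl3a, a phosphodiesterase gene switched on by LXR in human macrophages, rose in LTlate (130 ± 39.2 CPM against 43.9 ± 12.1 CPM in wtGMP, 1.56 ± 0.35, adjusted p = 0.00543). Its means were also above wtGMP in LTearly (105 ± 44.5 CPM) and in BMTGMP (88.1 ± 32.6 CPM). In BMTGMP it was not called (1.0 ± 0.35, edgeR adjusted p = 0.104).

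Of 15 genes of lipid uptake and lipid droplets, 6 rose and 1 fell in LTearly, where 11.2% of all genes rose and 8.94% fell. In LTlate 3 rose and 1 fell (7.50% and 3.26% of all genes), and in BMTGMP 1 rose and 1 fell (4.40% and 2.16% of all genes). Mgll, the monoglyceride lipase, averaged 44.1 ± 19.5 CPM in LTearly, 21.1 ± 3.19 in LTlate and 28.9 ± 26.0 in BMTGMP, against 0.879 ± 1.52 in wtGMP, and rose in all 3 (6.01 ± 0.93, edgeR adjusted p = 0.00028; 4.94 ± 0.94, adjusted p = 0.00263; 5.40 ± 0.95, adjusted p = 0.00204). Plin2, which coats lipid droplets, rose in LTearly (1.17 ± 0.27, adjusted p = 0.00314) and LTlate (1.30 ± 0.28, adjusted p = 0.00348). Lrp1, an endocytic receptor of lipoprotein remnants, rose in LTlate (340 ± 222 CPM against 52.9 ± 9.91 CPM in wtGMP, 2.69 ± 0.45, adjusted p = 0.00163). Its means were also above wtGMP in LTearly (220 ± 87.6 CPM) and BMTGMP (109 ± 48.6 CPM). Dgat2, which makes triglyceride, rose in LTearly against wtGMP (43.2 ± 30.3 CPM against 4.45 ± 2.53 CPM, 3.26 ± 0.56, adjusted p = 8.65e-05). Fabp5, a fatty acid carrier, fell in the 3 leukaemia groups, to 36.3 ± 11.3 CPM in LTearly, 29.7 ± 5.29 in LTlate and 35 ± 24.8 in BMTGMP, against 160 ± 31.1 in wtGMP (-2.14 ± 0.34, -2.43 ± 0.38 and -2.18 ± 0.38, highest adjusted p = 0.000674).

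**Figure D4:**
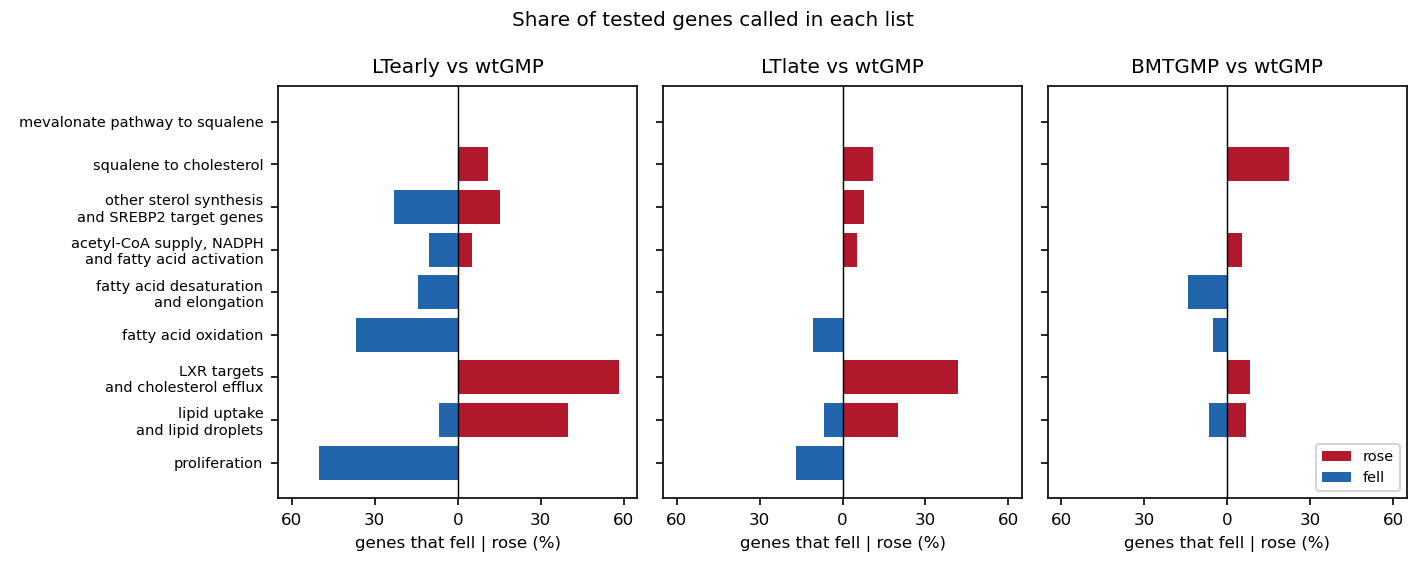
Share in percent of the tested genes of each list that fell (bars to the left) or rose (bars to the right) at an adjusted p under 0.05, in LTearly, LTlate and BMTGMP against wtGMP, from left to right. LXR targets (7 of 12 in LTearly) and lipid uptake (6 of 15) extend to the right, and fatty acid oxidation (7 of 19) and proliferation (9 of 18) to the left.

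Of 19 genes of fatty acid oxidation, 0 rose and 7 fell in LTearly, where 8.94% of all genes fell. In LTlate 2 fell (3.26% of all genes) and in BMTGMP 1 fell (2.16% of all genes), with 0 rising in either. The median changes were -0.59 in LTearly, -0.40 in LTlate and -0.31 in BMTGMP, beside 0.22, 0.00 and 0.07 over all genes. Etfb, which passes electrons from the oxidation to the respiratory chain, fell to 141 ± 50.5 CPM in LTearly and 148 ± 29.9 in LTlate, against 298 ± 20.3 in wtGMP (-1.08 ± 0.21, edgeR adjusted p = 0.000408, and -1.01 ± 0.23, adjusted p = 0.00341). Hadh, a dehydrogenase of the cycle, fell in LTearly (-1.79 ± 0.38, adjusted p = 0.000873) and BMTGMP (-1.46 ± 0.41, adjusted p = 0.0253), and Hadha, of the trifunctional protein, fell in LTearly (-0.59 ± 0.16, adjusted p = 0.00925) and LTlate (-0.56 ± 0.18, adjusted p = 0.0376). Of 19 genes of acetyl-CoA supply, NADPH and fatty acid activation, 1 rose and 2 fell in LTearly, and 1 rose and 0 fell in LTlate and likewise in BMTGMP. The shares called, 15.8% in LTearly and 5.26% in LTlate and BMTGMP, were below the 20.1%, 10.8% and 6.56% of all genes. The riser was Acsl1, an acyl-CoA synthetase, in LTearly (1.14 ± 0.21, adjusted p = 0.000278), LTlate (0.70 ± 0.23, adjusted p = 0.0447) and BMTGMP (1.01 ± 0.23, adjusted p = 0.00436), while its relative Acsl5 (-0.66 ± 0.20, adjusted p = 0.0154) and the dehydratase gene Hacd3 (-1.05 ± 0.33, adjusted p = 0.0251) fell in LTearly. Of 13 further sterol genes and SREBP2 targets, 2 rose and 3 fell in LTearly, 1 rose and 0 fell in LTlate, and 0 were called in BMTGMP. The shares called were 38.5%, 7.69% and 0%, beside 20.1%, 10.8% and 6.56% of all genes. Lbr, a sterol reductase of the nuclear envelope, rose in LTearly (0.66 ± 0.16, adjusted p = 0.00313) and LTlate (0.53 ± 0.17, adjusted p = 0.0424), and Tmem97 (-2.23 ± 0.59, adjusted p = 0.00742) and Acat2, a thiolase (-1.39 ± 0.39, adjusted p = 0.0115), fell in LTearly. Of 18 proliferation genes 9 fell in LTearly, 3 in LTlate and 0 in BMTGMP (8.94%, 3.26% and 2.16% of all genes fell), and their part in the lipid gene results was not tested.

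Between the leukaemia groups, Lpl, Apobr and Elovl6 were higher in both LT groups than in BMTGMP. In LTearly against LTlate 0 of 35 were called by edgeR and 0 by DESeq2. By edgeR 0.206% of all genes were called (0.117% higher and 0.0893% lower in LTearly). An unadjusted edgeR p under 0.05 was seen for 5 of 35, with no share over all genes taken. In LTearly against BMTGMP 4 were called (11.4%, with 6.20% of all genes called): Lpl, Apobr and Elovl6 rose (3.39% of all genes) and Fasn fell (2.80%). In LTlate against BMTGMP 3 were called (8.57%, with 1.98% of all genes called), where Lpl, Apobr and Elovl6 rose (1.52% of all genes) and 0 fell (0.460%). Lpl averaged 50.7 ± 28.0 CPM in LTearly and 131 ± 54.7 CPM in LTlate, a difference that was not called (-1.36 ± 0.61, edgeR adjusted p = 0.403). Of 18 proliferation genes 6 fell in LTearly relative to BMTGMP, where 2.80% of all genes fell.

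The libraries held 2469851 to 15092996 counts on genes, with wtGMP replicate 2 the shallowest and LTlate replicate 4 the deepest. The lipid genes spread most in LTearly, with a median coefficient of variation of 48.8%, beside 24.3% in LTlate, 30.4% in BMTGMP and 32.2% in wtGMP. Values resting on fewer than 10 counts were 15 of 140 in LTearly, 5 of 105 in LTlate, 9 of 105 in BMTGMP and 20 of 140 in wtGMP. Mvk, Pmvk, Hsd17b7, Insig2, Tm7sf2, Nr1h3, Scd1 and Fads2 were among the genes with such values, and differences in them could be missed unless large. Moderate changes could be missed in other genes too, since 16% of simulated 2-fold changes were recovered in LTearly vs wtGMP. Rank correlations between libraries of a group over all genes were 0.860 to 0.903 in LTearly, 0.948 to 0.956 in LTlate, 0.908 to 0.933 in BMTGMP and 0.913 to 0.942 in wtGMP.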

How the data were processed

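Values are expected counts per RefSeq transcript that the authors deposited in 1 table, on the mm9 build and allowing at most 100 hits, per the file headers. Bowtie 0.9.9.1 is named per the submitters' processing notes. Of the values, 13.75% were not whole (tolerance 1e-06), and transcripts without a gene symbol held 3.51% to 4.16% of each library's counts. Of 16 value columns, 1 has no sample here and was not used. Deposited totals were 3487772 to 21462900. For each gene the transcript with most counts on average was kept, and its counts were rounded. The 14 libraries with a group entered 1 edgeR 4.0.16 fit (R 4.3.3) with a mean per group, TMM scaling, the filterByExpr filter and the robust 2-sided quasi-likelihood test with Benjamini-Hochberg adjustment. The common biological coefficient of variation was 0.7485. SEs are the log2 change over the square root of F.

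Members and lists were chosen with earlier results of these data known. All 35 members are described, and of each further list up to 4 genes with the smallest p. The titles of the leukaemia libraries end in codes that the labels do not explain, so whether replicates are separate animals is not stated. LTearly replicate 1 and LTlate replicate 3 share the ending grD2, and LTearly replicate 3 and LTlate replicate 2 share grLT3. BMTGMP replicates 1 and 2 share grV. The fit did not model these codes, and p-values measure the spread between these samples. On simulated data, 2-fold changes were recovered in 16% (LTearly vs wtGMP), 12% (LTlate vs wtGMP) and 13% (BMTGMP vs wtGMP) of changed genes, and 4-fold changes in 43%, 52% and 45%. Alternatives were DESeq2 1.42.0, median-ratio factors, other filters, a replicate block, the library without a group placed in LTearly or LTlate, only the groups compared, summed transcripts, and each library left out. Floors cover counting error only, while SDs and SEs also hold the spread between libraries.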

Additional observations from a re-analysis of the deposited data

Results flagged for a closer look

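In 7 of 69 groups of 4 libraries, 1 library stood apart from the other 3 by more than Dixon's 95% limit, where chance gives about 1 in 20 groups. In LTearly replicate 3, Sqle was 30.8 CPM beside 4.26 to 5.98 CPM, Sc5d 64.6 CPM beside 23.4 to 29.8 CPM and Elovl6 24.2 CPM beside 4.53 to 7.51 CPM. In LTearly replicate 2, Elovl1 was 32.2 CPM beside 12.8 to 14.9 CPM, and Nr1h3 4.0 CPM beside 0 to 0.489 CPM. In wtGMP replicate 3, Nsdhl was 29.4 CPM beside 7.32 to 8.23 CPM. In wtGMP replicate 2, the shallowest library, Ebp was 98.8 CPM, below the 135 to 140 CPM of the others.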

How the results depend on the processing

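Lpl in the LT groups, Sc5d and Apobr against wtGMP, and Elovl6 in LTearly and BMTGMP against wtGMP were called in all alternatives run, and 0 of the member values reversed. Of the member values under alternatives, 3293 kept their side of the threshold, 31 gained a call and 25 lost one. For all genes in LTearly vs LTlate (30 called), there were 141 calls without a low-count filter, 52 with a filter of 1 CPM in 3 libraries, 264 with DESeq2, and 79 or 0 with the library without a group placed in LTearly or LTlate. DESeq2 gave 1500 calls over all genes in LTearly vs BMTGMP (902 by edgeR) and 574 in LTlate vs BMTGMP (288). In LTearly vs wtGMP it called 11 of the 35 lipid genes (6 by edgeR), beside 3615 of all genes (2924 by edgeR). With only the groups compared in the fit there were 407 calls over all genes in LTearly vs BMTGMP, 454 in LTlate vs BMTGMP and 2480 in LTlate vs wtGMP (1567), and among the lipid genes 7 in LTlate vs wtGMP (4) and 2 in LTearly vs BMTGMP (4). With the library without a group placed in LTlate, 7 lipid genes were called in LTlate vs wtGMP. Leaving out 1 library gave, over all genes, 2337 to 3182 calls in LTearly vs wtGMP, 917 to 1334 in LTlate vs wtGMP, 711 to 888 in BMTGMP vs wtGMP, 4 to 198 in LTearly vs LTlate, 581 to 1270 in LTearly vs BMTGMP and 154 to 311 in LTlate vs BMTGMP. Over the lipid genes it gave 5 to 9, 3 to 4, 3 to 4, 0 to 0, 3 to 5 and 3 to 3 calls in the same order. The counts moved by over 1.5 times without BMTGMP replicate 1 in LTearly vs BMTGMP (581), without LTlate replicate 2 in LTlate vs wtGMP (917) and LTlate vs BMTGMP (154), without BMTGMP replicate 4 in LTlate vs BMTGMP (165), and in LTearly vs LTlate without LTlate replicate 3 (9), LTlate replicate 4 (4) or LTearly replicate 4 (198). The causes were not tested. With the replicate block, 2742 genes were called in LTearly vs wtGMP, Elovl6 passed in LTlate vs wtGMP (adjusted p = 0.0476) and Cyp51 did not in BMTGMP vs wtGMP (adjusted p = 0.0829). Deviations of same-numbered libraries correlated at -0.161 to 0.114 over 18 pairs, beside -0.157 to 0.144 for other pairs, so the replicate numbers showed no pairing. Pairing by the codes in the titles was not tested. Under median-ratio factors the median change of all genes in LTearly vs wtGMP was 0.27 in place of 0.22. At the lowest depth, 2469851 counts, 1 count is a large part of the level of a low gene.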

Other observations

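The library whose title says LTearly and whose column says LTlate had 3.18 CPM of Lpl, 702 of Apobr, 8.60 of Elovl6, 67.2 of Fasn, 50.7 of Sc5d and 26.7 of Scap. Of its 35 lipid gene values, 23 lay within the range of LTearly, 10 within that of LTlate, 11 within that of BMTGMP and 15 within that of wtGMP. Its Lpl value lay below the 29.0 to 192 CPM of the LTearly and LTlate libraries and inside the 0.95 to 7.85 CPM of wtGMP, while its Apobr value lay in the range of both LT groups. Over all genes its rank correlation was 0.929 with LTearly replicate 4 and 0.926 to 0.928 with the LTlate libraries.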
